A study of Drosophila melanogaster with 6 samples.

Results

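The baseline RNA profile of the Drosophila melanogaster larval proventriculus was described from the 3 arrays, of 6 in the series, whose larvae had neither met the drug themselves nor descended from larvae that had. They are unchallenged replicates 1 and 2 and the array of F3 larvae without past exposure, and they were chosen by their labels alone. The study asked how RNA levels change under a toxic challenge with G418, an aminoglycoside antibiotic, and in the unexposed descendants of challenged larvae. All larvae, the 3 other arrays included, were of the strain hairy-gal4 UAS-neoGFP and at instar 3, so no array shows an animal without the transgenes. The Gal4 driver is named for hairy, so the GFP transgene marks only cells where that driver is active. The labels do not say how many animals gave each RNA, nor whether replicates 1 and 2 were separate dissections.

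The proventriculus, or cardia, is the valve at the junction of foregut and midgut, formed where the foregut tube folds into the midgut. Its epithelium secretes much of the peritrophic matrix, the sheet of chitin, chitin-binding proteins and mucins that encloses food and shields the midgut cells. Folded foregut epithelium, endodermal midgut cells, visceral muscle and tracheal branches lie together in the organ, and the regulators Dve, Fkh, Bowl and Hedgehog are known for their roles in shaping it.

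Each value is a log2 expression value of a probe set on the Affymetrix Drosophila 2.0 array. Probe sets were ranked by their lowest value over the 3 arrays, so that a high place needs all 3. Signal also depends on how well each probe binds and flattens near the top of the scale, so the ranking is coarse and a step between neighbouring genes carries no meaning. After 183 control probe sets were left out, 18769 remained, and 13647 of them carried 1 gene symbol and stood for 11982 genes. A gene with several probe sets took the one with the highest lowest value. The 62 odorant receptor probe sets served as a background scale, since those receptors belong to olfactory neurons. The 95th percentile of their highest values was 4.84, and this value was used as the background ceiling.

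By these limits 938 probe sets were abundant, defined as the top 5% by lowest value, which put the threshold at 10.47. Another 8086 were moderate, above the ceiling on all 3 arrays but under that threshold. The highest value of 8377 probe sets was at or below the ceiling, and 1368 crossed it on some arrays only. In genes, 736 (6.14%) were abundant, 6621 (55.3%) moderate, 929 (7.75%) mixed and 3696 (30.8%) at background. Every count of list members by band below is to be read beside these shares. The abundant genes closest to the threshold were Mgstl, a microsomal glutathione transferase, with a lowest value of 10.475, and Chmp1 with 10.473. CG5721 with 10.472 and Ahcy, the S-adenosylhomocysteine hydrolase, with 10.471 lay just under it. At the ceiling, Rh50 and CG15145 had highest values of 4.836 and were counted as background, whereas LpR2 with 4.837 and Amt with 4.838 were counted as mixed. These differences are far below the spread between arrays, so band edges are a convention.

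**Figure D1:**
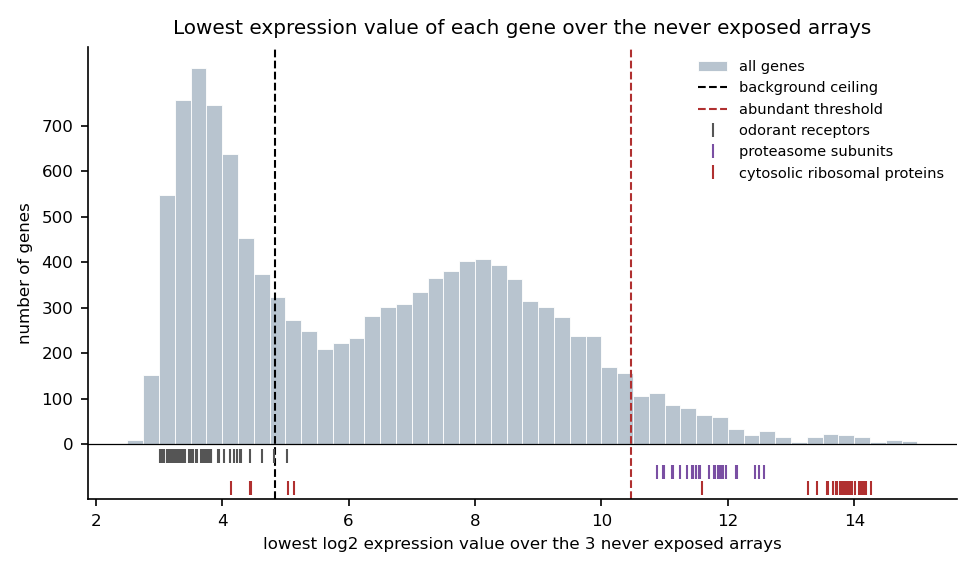
Histogram of the lowest log2 expression value over the 3 never exposed arrays (x axis) against the number of genes (y axis), with the background ceiling at 4.84 and the abundant threshold at 10.47 as dashed lines and the members of 3 gene lists as ticks under the axis. Odorant receptors sit in the left peak, proteasome subunits right of the abundant threshold, and most ribosomal proteins near the top of the scale.

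The 3 arrays were close overall but did not agree in every tissue's markers, and this touches the results that follow. Across probe sets, which are not independent replicates, Pearson's r was 0.972 between unchallenged replicates 1 and 2, 0.978 between replicate 1 and F3, and 0.976 between replicate 2 and F3. A range of at least 1 log2 unit over the 3 arrays was seen in 1557 probe sets, which is 8.3% of all. The 2-fold differences numbered 1293 (6.89%) between the unchallenged replicates, 680 (3.62%) between F3 and replicate 1 and 781 (4.16%) between F3 and replicate 2. Among the 1557, replicate 2 stood apart as the high array in 655 (42.1%) and replicate 1 in 497 (31.9%). The arrays do not pair off by label: the replicates of the unchallenged group differed from each other at more probe sets than either differed from F3. With 2 arrays against 1, an exact permutation test cannot give a two-sided p under 0.33. The arrays are described without a contrast, and no test was made between them.

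The spread between arrays differed by band. The median range was 0.24 among abundant probe sets, 0.39 among moderate, 0.75 among mixed and 0.25 among background probe sets. A range of 1 or more occurred in 30 abundant, 896 moderate, 576 mixed and 55 background probe sets. These values are no measure of stability, since the signal flattens at the top of the scale and mixed probe sets cross the ceiling by definition. Of the 938 abundant probe sets, 845 (90.1%) were also in the top 5% by lowest value over the 3 other arrays of the series, and 0 fell to the ceiling on any of them. Of the background probe sets, 412 (4.92%) rose above the ceiling on at least 1 other array. The top of the profile is therefore shared by all 6 arrays, within the coarse scale used here.

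Genes named as mucins or peritrophins held 4 of the 20 leading places, and 14 of the other places were held by genes known only by number. No function was assigned to those 14 here, so the 4 counts names only. Muc96D, a mucin, gave the highest lowest value of any named gene, with 14.92, 14.93 and 14.96 on unchallenged replicates 1 and 2 and F3. The chitin-binding Peritrophin-15b gave 14.75, 14.76 and 14.80, and its relative Peritrophin-15a gave 14.73, 14.73 and 14.72. The spread over the arrays was under 0.1 in all 3 genes. The secreted mucin Muc26B gave 14.55, 14.62 and 14.72 and was highest on F3.

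The 20 leading genes had lowest values from 14.40 to 14.92 and a median range of 0.06, and their values overlapped between most neighbours in the order. Beside the genes above they held Kaz-m1, a Kazal-type protease inhibitor, with 14.67, 14.71 and 14.71, and Jon65Aiv, a Jonah-family digestive serine protease, with 14.73, 14.58 and 14.42. The other 14 are known in the files only by number: CG7017, CG34282, CG5084, CG14300, CG12934, CG7567, CG10725, CG17826, CG6933, CG7714, CG32302, CG5506, CG11470 and CG43896. Symbols made only of a CG number were held by 14 of the top 20 genes and 35 of the top 100. Over the bands they were held by 177 of 736 abundant genes, 37.0% of moderate, 47.9% of mixed and 58.0% of background genes. Among genes with a symbol, number-only symbols were thus least frequent in the abundant band, though not at its very top. Probe sets with no symbol are outside these counts. They made up 17.4% of the abundant, 9.77% of the moderate, 17.8% of the mixed and 42.1% of the background band.

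Of the 100 leading probe sets, 41 carried no gene symbol here and 1 carried several. The ranking of genes leaves these out, so the following counts cover named genes only. Among the 100 leading genes, 28 were cytosolic ribosomal proteins, 8 were listed peritrophic matrix proteins or mucins and 7 were gut serine proteases. The metal-binding MtnA, Fer1HCH and Fer2LCH, the translation factors eEF5 and Tctp, the chitin deacetylase Cda9, the actin-severing cofilin tsr, the chaperone Hsc70-4 and the antimicrobial peptide Drsl2 made up the rest of the 52 that fell in a gene list. The remaining 48 were in none of the 59 lists described here. Ribosomal proteins were thus the most frequent of the listed groups among them.

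The peritrophic matrix and mucin list was split. Of its 31 measured members, 12 (38.7%) were abundant, against 6.14% of all genes, while 9 were moderate, 3 mixed and 7 at background. The obstructor genes, which encode secreted chitin-binding proteins, showed the split within a family. In obst-J the values were 14.26, 14.35 and 14.42, in obst-F 14.13, 14.16 and 14.37, and in obst-G 13.76, 13.71 and 13.87. The cuticle-linked obst-A was well below these at 8.28, 10.06 and 8.34, with replicate 2 high.

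The mucins ranged from the top of the scale to the bottom. Muc68E, Mur29B and Muc55B were also abundant, and Muc55B had values of 13.19, 11.86 and 12.65. Muc14A, with 3.49, 3.10 and 3.11, and Mur82C, with 3.13, 3.27 and 3.20, were at background on every array. Muc11A crossed almost the whole scale, with 8.34 on replicate 1, 4.46 on replicate 2 and 11.43 on F3. The probe set of Muc11A therefore read background on unchallenged replicate 2 and an abundant level on F3, and it counted as mixed.

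**Figure D2:**
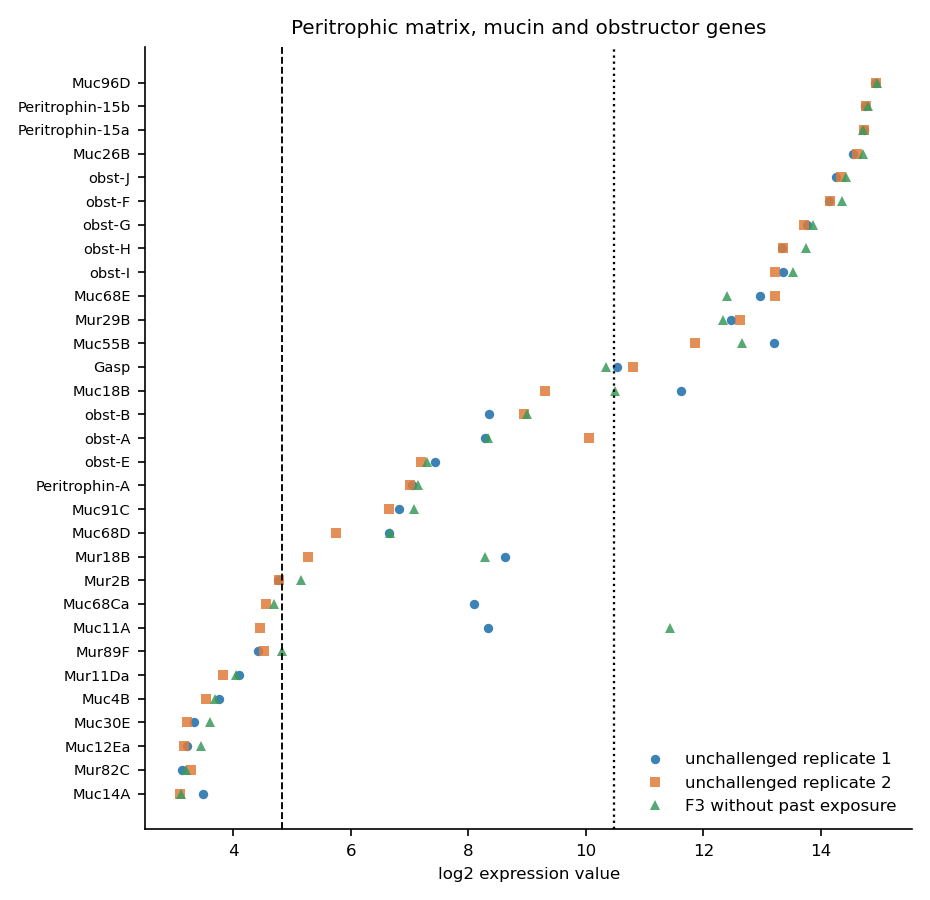
log2 expression values (x axis) of the 31 measured peritrophic matrix, mucin and obstructor genes (y axis) on the 3 never exposed arrays, 1 symbol per array, with the background ceiling as a dashed line and the abundant threshold as a dotted line. The leading genes from Muc96D to obst-I lie above 13 with symbols close together, whereas Muc11A spreads from 4.46 to 11.43.

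Most enzymes that make and modify chitin were moderate, as were 55.3% of all genes. Of 25, 4 (16.0%) were abundant, against 6.14% of all genes, while 18 were moderate, 1 mixed and 2 at background. Cda9, a chitin deacetylase, led with 14.18, 14.24 and 14.36, and the chitinase-like secreted protein Idgf4 followed with 12.79, 13.02 and 13.25. mmy, which makes the UDP-N-acetylglucosamine used for chitin, had 10.88, 10.83 and 11.51. Cht10, a chitinase, was also abundant, and Cda5 with 3.64, 3.92 and 3.38 was the dimmest member. The chitin synthase genes Chs2, of gut linings, and kkv, of cuticle, were both moderate, with lowest values of 9.13 and 7.90.

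Cuticle protein genes were mostly dark. Of 105 measured members, 62 were at background, 17 mixed, 24 moderate and 2 (1.90%) abundant. Among all genes, 30.8% were at background and 6.14% abundant. The abundant members were Cpr49Ac, with 12.65, 12.53 and 12.06, and Cpr51A, with 10.79, 11.09 and 11.10. Lcp65Ae, with 2.98, 3.06 and 3.37, and Cpr50Ca were the dimmest. Genes of the chitin-binding Cpr family thus stood at both ends of the list.

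Digestive genes divided by class. Of 27 gut serine proteases 9 (33.3%) were abundant, against 6.14% of all genes. Among the 9 were the Jonah proteases Jon65Aiv and Jon74E, the latter with 14.49, 14.18 and 14.24, and the trypsin betaTry with 14.49, 13.90 and 13.99. Jon65Aiii gave 14.57, 14.40 and 14.03, so that replicate 1 was the highest array for all 4 leading proteases. Another 9 members were at background, a share near the 30.8% of all genes, with Sems at 3.92, 3.59 and 3.81. The dimmest, Jon99Fi, was mixed, with 4.32, 2.91 and 5.13.

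None of the 13 maltases and amylases was abundant, while 9 were moderate, 2 mixed and 2 at background. For all genes the shares were 6.14% abundant, 55.3% moderate and 30.8% at background. Their median lowest value was 5.50, beside 4.94 for the gut serine proteases. Treh, the trehalase, had 9.97, 9.57 and 9.95, and its values lay close together. Mal-A8 had 10.91, 9.82 and 8.80, and Mal-A6 had 10.72, 9.15 and 8.38, so both were highest on replicate 1 and lowest on F3. Amyrel, an amylase-related gene, was at background with 3.93, 3.95 and 4.12. Of the 3 lysozymes, LysS was abundant with 14.03, 12.23 and 12.15, LysX was abundant with a lowest value of 10.62, and LysP was mixed with 5.92, 4.16 and 3.99.

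Lipid-handling genes held 4 abundant members of 19: the sterol-binding Npc2f and Npc2a, the fatty acid binding protein fabp and the acyl-CoA binding protein Acbp6. Npc2f had 12.88, 12.64 and 12.86 and fabp had 13.07, 13.09 and 12.55. A range of 1 or more was found in 12 of the 19, against 1219 of all 11982 genes. Acbp4 spanned most of the scale with 12.85, 10.61 and 5.92, and Npc2h, the dimmest, had 5.96, 4.29 and 4.41. The steady members were thus a minority of this list.

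Protein synthesis and turnover formed the second large block. Of 34 measured cytosolic ribosomal proteins 29 were abundant, with a list median of the lowest value of 13.83 against 6.21 over all genes, and their largest range was 0.50. RpS29 had 14.32, 14.38 and 14.26, and RpS28b had 14.18, 14.20 and 14.18. The 5 members that were not abundant included RpL10Aa, at background with 4.38, 4.13 and 4.47, and RpS10a with 4.81, 4.44 and 4.94. Both are members of duplicated ribosomal gene pairs.

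The translation factors followed in graded order. eEF5 gave 13.80, 13.86 and 13.86, Tctp gave 13.34, 13.48 and 13.46, and 4 of 5 elongation-related genes were abundant. The exception, eEF1alpha2, had 8.09, 12.14 and 7.49, with replicate 2 high. Among 40 initiation factors 17 were abundant, led by the RNA helicase eIF4A with 12.87, 13.11 and 13.23, and 8 were at background, such as eIF4E7 with 3.20, 2.98 and 3.50. None of the 16 aminoacyl-tRNA synthetases was abundant and all 16 were moderate, from AsnRS at 9.96, 10.07 and 10.28 to HisRS at 8.08, 8.16 and 8.23.

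All 26 proteasome subunits of the list were abundant. The list leaves out the T and R copies of subunit genes described further on, whereas the ribosomal, vacuolar ATPase and oxidative phosphorylation lists keep such copies, so their shares are not comparable with this count. The regulatory subunit Rpn5 led with 12.57, 12.68 and 12.79, the catalytic-core subunit Prosbeta3 had 12.49, 12.66 and 12.74, and the lowest member, Rpn1, had 10.92, 10.87 and 11.10. The largest range in this list was 0.50. Of 21 genes of the endoplasmic reticulum and secretory pathway 14 were abundant, with the luminal chaperone Hsc70-3 (BiP) at 12.74, 12.87 and 13.01 and the disulphide isomerase ERp60 at 12.70, 12.80 and 12.96. Pdi, another disulphide isomerase, read 3.27, 3.23 and 3.28. A probe set at background does not show that its transcript is missing.

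Cytosolic chaperones held 8 abundant, 9 moderate and 5 background members of 22. Hsc70-4, the constitutive Hsp70 relative, had 13.72, 13.81 and 13.80. The small heat shock protein Hsp27 had 11.71, 13.03 and 12.06, with replicate 2 high, and the co-chaperone DnaJ-1 had 11.61, 11.88 and 11.67. Hsp60D, with 3.30, 3.35 and 3.75, and Hsc70-2, with 3.90, 3.75 and 3.89, were the dimmest. The last 2 were at background on all 3 arrays.

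The genes of energy metabolism lay in several bands. Of 71 oxidative phosphorylation subunits 28 were abundant, 27 moderate and 16 at background. ND-MLRQ of complex I had 13.03, 12.95 and 12.84, and ATPsynF of the ATP synthase had 12.56, 12.74 and 12.53. ND-B8, with 3.44, 3.01 and 3.06, and COX6CL, with 3.75, 3.08 and 3.50, were at the bottom. The 69 mitochondrial ribosomal proteins, which translate the mitochondrial genome, were all moderate, from mRpS5 at 9.93, 10.08 and 9.99 to mRpS29 at 6.85, 6.81 and 6.73.

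In glycolysis 5 of 9 enzymes were abundant and 4 moderate. Gapdh1 led with 12.01, 11.87 and 12.01 and Tpi followed with 11.38, 11.23 and 11.09, whereas the early enzymes Pfk, at 7.74, 7.61 and 7.68, and Hex-A, at 6.97, 7.18 and 7.25, were lowest. In the tricarboxylic acid cycle 2 of 8 were abundant, Scsalpha1 with 11.60, 11.42 and 11.29 and Ogdh with 10.75, 10.48 and 10.80. The remaining 6, such as Idh3b at 8.48, 8.76 and 8.69, were moderate.

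Vacuolar ATPase subunits, which acidify organelles and, in some epithelia, the lumen, fell into separate classes: 11 of 31 were abundant and 13 at background. The shares of all genes in these bands were 6.14% and 30.8%. Vha16-1 had 12.75, 12.90 and 13.09 and Vha26 had 11.79, 11.82 and 12.10. Vha68-3, with 3.35, 3.11 and 3.38, and Vha100-3, with 3.67, 3.52 and 3.49, were at background. Several of the dim genes are copies of a bright subunit.

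Such pairs were looked at more closely after their values were seen, and the following are examples and not a tested set. Vha16-1 was abundant and Vha16-2 read 3.74, 3.79 and 3.96. Prosalpha3 had 11.88, 12.12 and 12.10 beside 3.77, 3.74 and 3.88 for Prosalpha3T. RpS28b was abundant beside RpS28a at 5.10, 5.03 and 5.46. Prosalpha4T1 and Prosalpha6T, known like Prosalpha3T from the testis, were also at background, as were Prosbeta4R1 and Prosbeta5R1. The bright copy was abundant in each of these pairs. In the ferritin heavy chains, Fer1HCH had 13.61, 13.57 and 13.67 and Fer3HCH had 3.54, 3.22 and 3.595.

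**Figure D3:**
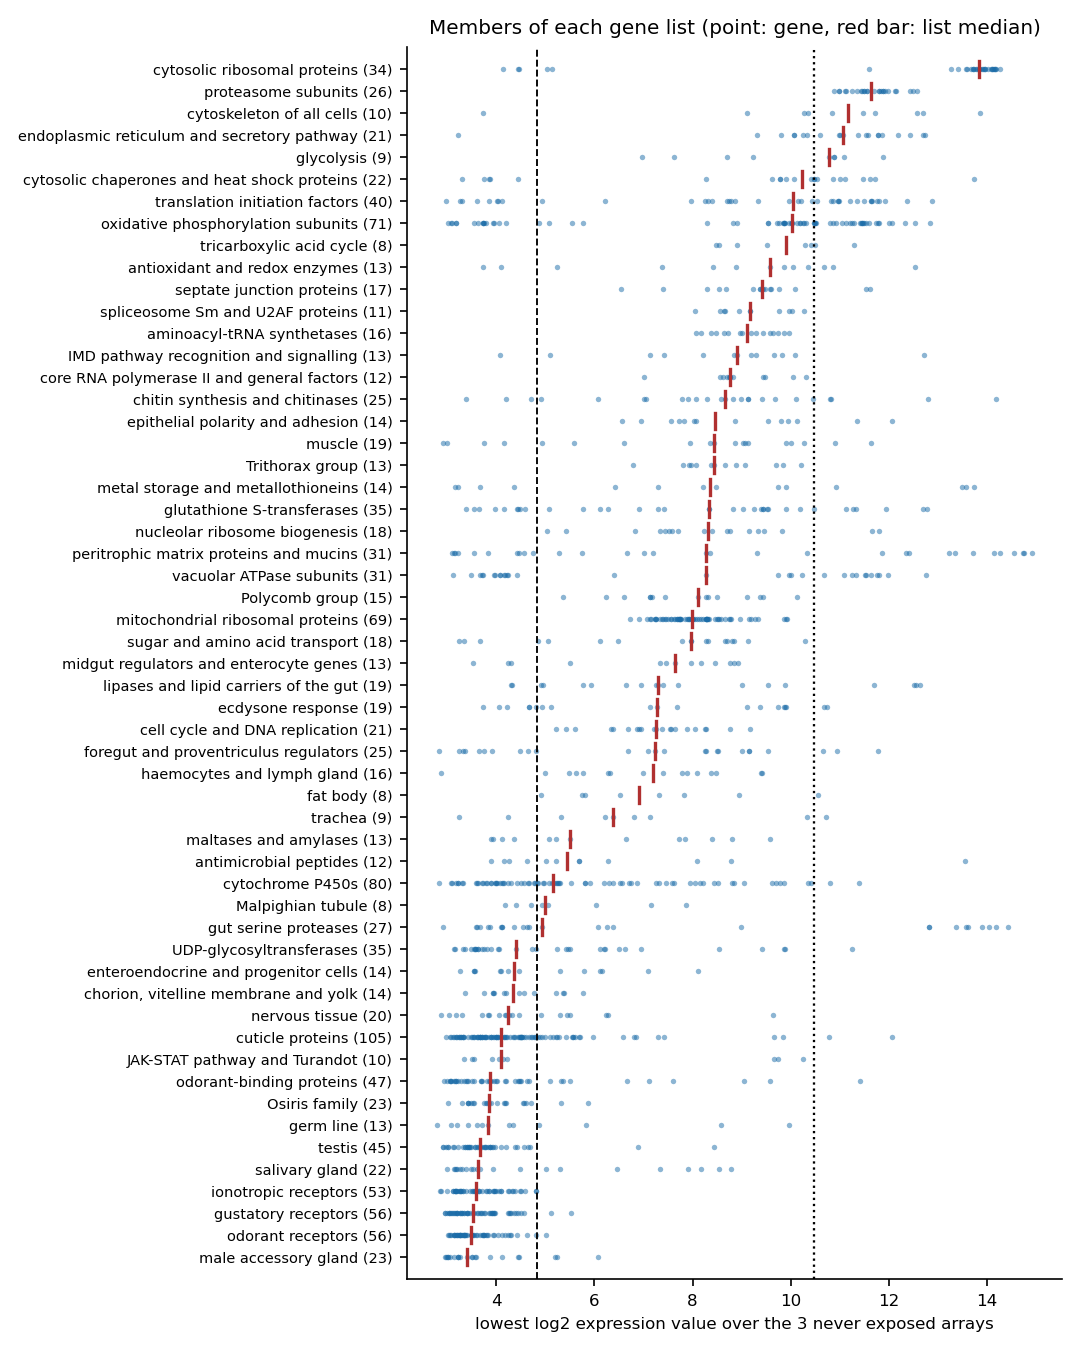
Lowest log2 expression value over the 3 never exposed arrays (x axis) of every measured member of the gene lists with at least 8 members (y axis, number of members in brackets), 1 point per gene and a red bar at each list's median. Ribosomal proteins and proteasome subunits lie at the top right, receptors of sensory neurons and genes of the male accessory gland at the bottom left, and the peritrophic list spans the whole axis.

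Of 14 metal storage and transport genes 4 were abundant. The metallothionein MtnA had 13.89, 13.73 and 13.84, and the ferritin subunits Fer1HCH and Fer2LCH lay above 13.4 on every array, Fer2LCH with 13.51, 13.48 and 13.51. MtnD was the other abundant member, with 11.72, 11.28 and 10.92. The copper transporter Ctr1B, with 3.79, 3.27 and 3.17, was at background. All 4 abundant members are storage or metal-binding proteins.

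Among detoxification families, 7 of 35 glutathione S-transferases, 2 of 80 cytochrome P450s and 1 of 35 UDP-glycosyltransferases were abundant. GstS1 had 12.94, 12.78 and 13.00 and GstD1 had 12.69, 12.89 and 12.89. Cyp9f2 had 11.93, 11.38 and 11.60 and Cyp4e2 had 11.27, 10.82 and 10.80. These members, with Ugt301D1 at 11.24, 11.38 and 11.43, lay close together, but they were picked by their lowest value, which favours a small range. Over the whole families, 7 glutathione transferases, 20 P450s and 5 UDP-glycosyltransferases had a range of 1 or more. The same held for 1219 of all 11982 genes. At background were 5 glutathione transferases, 25 P450s and 16 UDP-glycosyltransferases, including GstE4 at 3.69, 3.39 and 3.88 and Cyp311a1 at 3.37, 3.09 and 2.84. The background share of all genes was 30.8%, and that of the P450s was close to it. Of 13 antioxidant genes 3 were abundant, led by catalase.

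Of the antimicrobial peptides 1 of 12 and of the IMD pathway genes 1 of 13 were abundant, shares close to the 6.14% of all genes. Drsl2, a drosomycin-like peptide, had 13.58, 13.70 and 13.56 and was the only abundant antimicrobial peptide of 12 measured. Def, the insect defensin, had 10.49, 10.11 and 8.79, and Drsl5 had 11.46, 10.16 and 8.09, so both were lowest on F3. Drs itself was high on replicate 1 alone, with 9.98, 5.33 and 5.21. AttD with 4.22, 3.88 and 4.32 was at background. A range of 1 or more was found in 6 of the 12 peptides, against 1219 of all 11982 genes.

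In the upstream IMD pathway 1 of 13 genes had such a range. PGRP-SC2, an amidase that degrades peptidoglycan, was abundant with 13.57, 12.72 and 13.14, and 11 of the 13 genes were moderate. The receptor gene PGRP-LA had 10.09, 10.37 and 10.27, the kinase subunit key had 9.82, 10.06 and 9.85, and the NF-kappaB factor Rel had a lowest value of 9.66. PGRP-SB1 was mixed with 5.74, 4.37 and 4.07. In the JAK-STAT list Stat92E, with 10.44, 10.25 and 10.54, and the receptor dome, with 9.83, 9.73 and 10.01, were moderate, and the 7 Turandot and unpaired genes were at background, TotC with 4.76, 3.55 and 3.34.

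Epithelial structure was represented throughout. The smooth septate junction genes Ssk, with 11.73, 11.62 and 11.82, and Tsp2A, with 11.53, 11.62 and 11.59, were the 2 abundant members of 17, and the other 15 were moderate. Both are known from endodermal epithelia. Moe, the actin-membrane linker moesin, had 12.05, 12.57 and 12.73, and rhea, talin, had 11.46, 11.35 and 11.40. Of 10 general cytoskeletal genes 6 were abundant, led by tsr with 13.85, 13.98 and 13.93, and alphaTub84D read background with 3.77, 4.07 and 3.74.

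Genes of the nuclear machinery were nearly all moderate, against 55.3% of all genes. In the lists of this paragraph no gene was at background, against 30.8% of all genes. All 12 RNA polymerase II and general factor genes, all 11 spliceosome genes, all 21 cell cycle and replication genes, all 15 Polycomb group genes and all 13 Trithorax group genes were moderate. SmD2 of the spliceosome had 10.27, 10.69 and 10.35 and Polr2K of the polymerase had 10.61, 10.69 and 10.31. Caf1-55, a histone-binding subunit of Polycomb complexes, had 10.14, 10.88 and 10.62 and escl had 5.46, 5.61 and 5.35. The replication clamp PCNA had 8.77, 9.90 and 9.18. Of 18 nucleolar genes 2 were abundant, Non1 with 11.80, 11.85 and 12.11 and Nlp with 11.66, 12.20 and 11.96.

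The labelled tissue was set against its known regulators. hry (hairy), a repressor of the bHLH class, had 11.78, 11.77 and 12.15, and dve, a homeobox gene named for its defective proventriculus mutant, had 11.07, 10.93 and 11.51. drm, a zinc finger gene of foregut folding, had 10.65, 11.03 and 11.28. These 3 were abundant on all arrays. The forkhead gene fkh had 8.997, 9.61 and 10.10, bowl had 9.14, 9.60 and 9.44, and the signal hh had 8.52, 9.19 and 9.34, all moderate and lowest on replicate 1.

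Of the 25 foregut and proventriculus regulators, 12 were moderate, 6 mixed and 4 at background. dpp, a BMP signal, had 5.14, 5.89 and 4.81 and was mixed. tll, with 3.24, 4.26 and 3.49, was at background, and the gap gene Kr, the lowest member, was above the ceiling on replicate 1 alone, with 6.48, 4.18 and 2.84. Probe sets naming wg or N alone were not used here. The midgut was represented by nub with 8.98, 8.85 and 9.31, pdm2 with 9.43, 8.92 and 9.53 and the endodermal GATA factor GATAe with 9.09, 8.46 and 9.03. cad, a hindgut and posterior midgut gene, was mixed with 4.85, 3.52 and 5.83. The counts of both lists lie near the background: 15 of 25 foregut regulators and 10 of 13 midgut genes were above the ceiling on all 3 arrays, as were 7357 of all 11982 genes. These counts alone do not check the label, and the levels of hry, dve and drm are given as a description.

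Muscle genes were mostly moderate, as were 55.3% of all genes. Of 19, 2 were abundant, against 6.14% of all genes, while 13 were moderate and 4 at background. The 2 were Mlp60A with 11.75, 11.65 and 11.63 and Zasp66 with 10.90, 10.93 and 11.16. With the mean of a gene's probe sets in place of the brightest, 0 muscle genes were abundant. The myosin light chain Mlc1 had 11.13, 10.28 and 10.51 and Zasp52 had 10.15 on replicate 1 and 10.35 on F3, with replicate 2 the lowest. The flight muscle troponins TpnC4, with 3.08, 2.92 and 2.93, and TpnC41C, with 3.19, 2.99 and 3.26, were at background. No muscle gene had a range of 1 or more. In a bulk sample, fewer cells of a type and less RNA per cell cannot be told apart, here and for every marker list below.

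Fat body markers moved most between the arrays. Lsp2, a larval storage protein, had 14.30, 13.44 and 8.95, Fbp1, a hexamerin receptor, had 14.23, 12.90 and 7.82, and the lipophorin gene apolpp had 12.86, 11.43 and 5.81. In all 3 the order was the same, replicate 1 highest and F3 lowest. Fbp2 had 13.75, 11.36 and 6.52, while Desat1, a desaturase that many tissues use, was steady at 10.99, 10.55 and 11.05 and was the 1 abundant member of 8. A range of 1 or more was found in 7 of the 8, against 1219 of all 11982 genes. The log2 of the list's summed level was 16.04, 14.70 and 11.66. Without F3, 5 of the 8 fat body genes would count as abundant, and without replicate 1 none would.

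Acbp4, Obp99b, Mal-A8, Mal-A6, Jon65Aiv and Jon65Aiii followed the same order of arrays as the fat body list. Obp99b, an odorant-binding family member, was abundant with 14.60, 13.52 and 11.42 and had the largest range of any abundant gene. Whether the fat body signal has a part in these genes' ranges was not tested. Among abundant genes 24 had a range of 1 or more, also LysS, Acbp6, Jon25Bi, regucalcin, Hsp26, Hsp27 and the ecdysone-responsive br with 10.67, 11.68 and 11.45. These genes stay in the abundant band on each array, but their level differs.

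**Figure D4:**
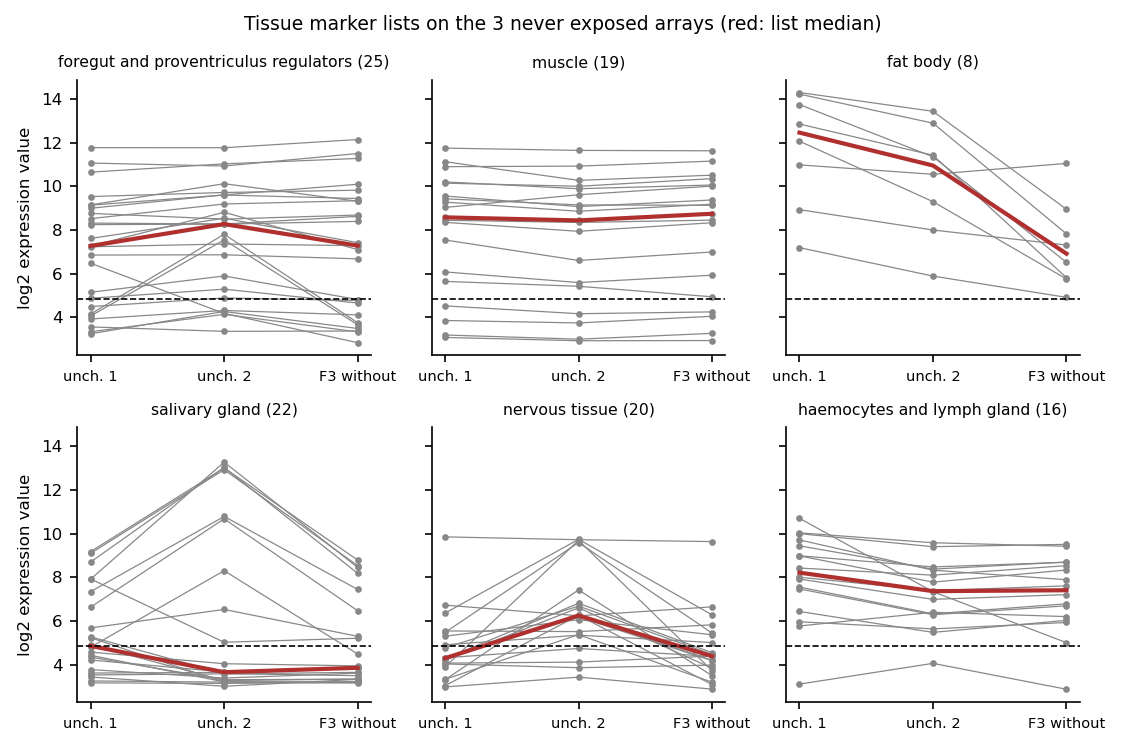
log2 expression value (y axis) on unchallenged replicates 1 and 2 and F3 without past exposure (x axis) for 6 tissue marker lists, with 1 grey line per gene, a red line for the list median and the background ceiling dashed. Muscle lines are flat, fat body lines fall from replicate 1 to F3 for 7 of 8 genes, and the brightest salivary gland lines and many nervous tissue lines peak on replicate 2.

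Salivary glue genes and neuronal genes were high on replicate 2. Sgs3, a glue protein, had 8.70, 13.03 and 8.18, Sgs7 had 9.18, 13.01 and 8.79, Sgs8 had 9.10, 12.93 and 8.53, and Sgs5 had 7.91, 13.28 and 8.45. These 4 glue genes were above background on all 3 arrays and highest on replicate 2. Sgs1, another glue gene, was above the ceiling on replicate 2 alone, with 4.80, 8.30 and 4.48. By contrast, 10 of the 22 salivary genes were at background on all 3 arrays, such as Eig71Eh with 3.43, 3.00 and 3.32. The log2 of the list's summed level was 11.36, 15.23 and 10.94. In the nervous tissue list, the summed level gave 10.53, 12.08 and 10.40.

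The pan-neuronal RNA-binding genes fne, with 3.89, 9.69 and 3.72, and elav, with 4.27, 6.81 and 4.54, and the glial factor repo, with 3.30, 7.42 and 3.49, were above the ceiling on replicate 2 alone. VAChT, with 2.97, 3.42 and 2.87, was at background throughout, and loco, also used outside the nervous system, was steady at 9.85, 9.72 and 9.63. Of 20 members 11 had a range of 1 or more, against 1219 of all 11982 genes, and 0 were abundant. The Hox gene Scr, with 4.15, 7.81 and 3.75, and the Sox gene D, with 4.06, 7.55 and 3.66, counted above as foregut regulators, had the same array high. Their band therefore rests on replicate 2, and the part of neural or salivary tissue in it was not tested.

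The lists for haemocytes, trachea, Malpighian tubule and enteroendocrine or progenitor cells held 1 abundant gene among them. Haemocyte and lymph gland genes were moderate in 15 of 16, led by SPARC with 10.04, 9.58 and 9.42 and the scavenger receptor crq with 9.998, 9.40 and 9.51, and lz was at background with 3.10, 4.05 and 2.87. NimB3 had the widest range, with 10.70, 7.34 and 4.9995, and 7 of the 16 had a range of 1 or more. Of 9 tracheal genes only pio, with 10.72, 11.40 and 11.39, was abundant, and 6 were moderate. Of the 8 Malpighian tubule genes, NKCC had 7.89, 8.32 and 7.87 and ct, with 4.17, 4.60 and 4.24, was at background, and 4 had a range of 1 or more. Enteroendocrine and progenitor genes were moderate in 6 of 14, with pros at 8.11, 9.20 and 8.14, esg at 7.400, 8.22 and 6.15 and Poxn at background with 3.54, 3.67 and 3.65. A range of 1 or more was found in 9 of these 14, against 1219 of all 11982 genes.

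Most reproductive and sensory gene sets lay largely at background, where 3696 of all 11982 genes (30.8%) were. Of 45 testis genes 39 were at background, and of 23 accessory gland genes 20. Of 13 germ line genes 9 were at background and 4 moderate. Of 14 chorion, vitelline membrane and yolk genes 7 were at background, 3 mixed and 4 moderate. In the testis, ProtB, a protamine, had 2.99, 2.92 and 3.02, and the germ cell helicase vas had 3.49, 3.08 and 3.45. Exceptions included tud, moderate with 9.96, 10.51 and 10.59, gcl with 8.78, 8.57 and 8.87 and Mst85C with a lowest value of 8.44. Of the gustatory receptors 52 of 56, and of the ionotropic receptors 48 of 53, were at background, beside 52 of 56 odorant receptors, which set the ceiling.

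Gr43a, the internal fructose receptor, was the highest gustatory receptor with 6.14, 5.52 and 6.01, above the ceiling on all 3 arrays. Ir68a had 4.82, 4.93 and 4.81, and Ir67c, the lowest of its family, had 2.86, 2.93 and 2.91. Of 47 odorant-binding genes 33 were at background and 9 moderate, among them Obp18a with 9.99, 9.57 and 9.62. Of 23 Osiris genes, known from cuticle-forming epithelia, 18 were at background and Osi14 was highest with 6.45, 5.86 and 6.32.

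Hormone response genes were found in every band. Of 19 ecdysone response genes, Eip63E, with 10.73, 10.86 and 11.27, and br were abundant, 11 were moderate, 3 mixed and 3 at background. The shares over all genes were 6.14% abundant, 55.3% moderate, 7.75% mixed and 30.8% at background, so the moderate share was near that of all genes. Hr39 had 9.90, 10.24 and 10.23 and EcR, the receptor, had a lowest value of 7.68. Hr38 was at background with 3.92, 3.74 and 3.82. ImpE2, an ecdysone-inducible gene of imaginal discs, was high on replicate 2 alone, with 5.13, 11.86 and 4.22.

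The genes with the widest ranges showed 3 patterns over the arrays. Obp44a, known from glia, had 6.28, 13.37 and 5.51, and lncRNA:CR33938 had 5.59, 12.32 and 4.53. These are high on replicate 2, as is ImpE2. Fbp2, apolpp, Acbp4 and CG15369 fall from replicate 1 to F3, CG15369 with 11.78, 9.20 and 4.61. Muc11A was low on replicate 2, as were CG11892, with 10.77, 3.92 and 10.19, and CG15155, with 9.43, 3.39 and 9.61, which were chosen after their values were seen.

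**Figure D5:**
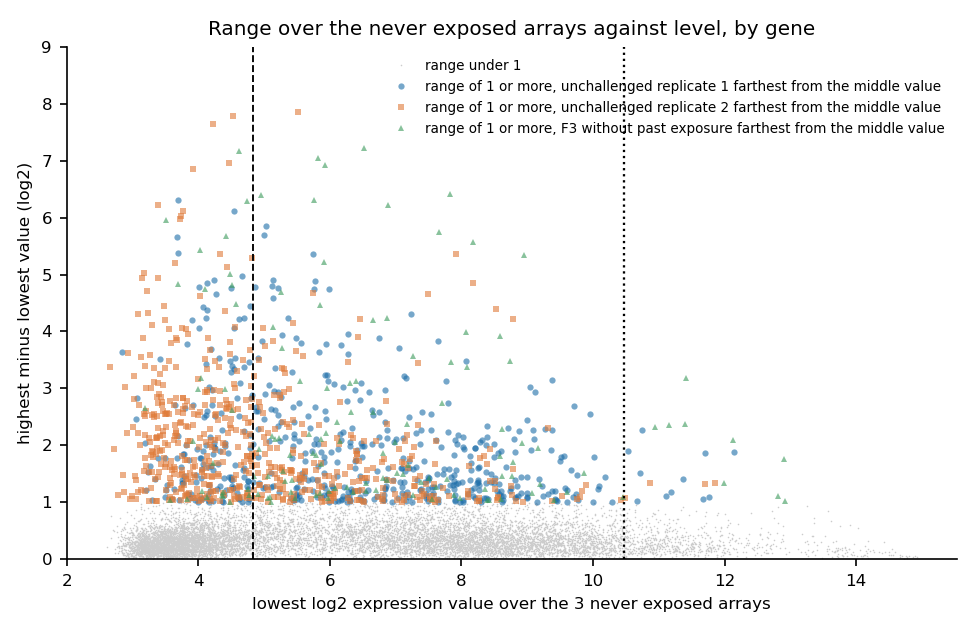
Highest minus lowest log2 value over the 3 never exposed arrays (y axis) against the lowest value (x axis), 1 point per gene, with genes of range 1 or more marked by the array farthest from the middle value. Wide ranges are frequent at low and moderate levels, and the right of the abundant threshold holds 24 genes with a range of 1 or more.

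The mixed band shows which array lifted genes off background. Of its 1368 probe sets, 375 were above the ceiling on replicate 2 alone, 284 on F3 alone and 198 on replicate 1 alone. For the remainder, 292 were above it on replicate 1 and F3, 118 on both unchallenged replicates and 101 on replicate 2 and F3. The difference was at least 1 log2 unit in 294 of the 375 on replicate 2 but in 13 of the 284 on F3, so most of the F3 crossings lay close to the ceiling. The largest of the replicate 2 crossings was that of fne.

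Gene length and position were compared as features the ranking did not use. The median genomic span in the RefSeq gene table (assembly Release 6) was 2354 bases for abundant genes, 2757 for moderate, 2320 for mixed and 1591 for background genes, against 2263 over all. Abundant genes also followed each other in places in the chromosomal order of measured genes. Runs of at least 3 adjacent measured genes that were all abundant included CG5883, CG7252, CG17826 and obst-G, and also CG10154, CG10725 and CG10140. CG13806, obst-I and CG32302 formed another such run, as did alphaTry, epsilonTry and betaTry. Some number-only genes, such as CG17826 and CG32302 of the 20 leading genes, were thus in a run with an obstructor gene. Genes without a probe set of 1 symbol were skipped, so members of a run need not be direct neighbours. No function is drawn from the runs.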

How the data were processed

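RNA from proventriculus was measured on 6 Affymetrix Drosophila 2.0 arrays, and 3 are described here. Per the submitters' processing notes, the authors ran RMA through Affymetrix Expression Console, and the values deposited are on a log2 scale. The software version is not given in the sources used here, nor is it said which arrays were normalized jointly. RMA compresses differences among dim probe sets, and no detection calls were used. No values were renormalized. The 183 AFFX control probe sets of 18952 were left out. All 6 value columns match a sample, and 0 columns were left over.

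Names came from the platform annotation (13647 probe sets with 1 symbol, 402 with several, 4720 unnamed here), updated through RefSeq gene identifiers, with 103 older symbols kept. Bands were set by the lowest and highest value, as the report states, in Python 3.11.15 with pandas 2.3.3 and numpy 2.4.6, and figures drawn with matplotlib 3.10.9. The band code was run on simulated data with gaps between the background, moderate and abundant levels. That run checks the code and cannot tell how sure the calls near a threshold are. The profile has no contrast, so no test between groups was made.

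The arrays, the 59 gene lists and the rules were chosen with earlier results of these data known. List entries that matched only through an ambiguous synonym were dropped after matching. Named genes were the 20 with the highest lowest value, up to 4 highest and 2 lowest members of each list described, the 8 with the largest range among genes above the abundant threshold or the median on an array, dve, fkh, bowl, hh, wg, dpp, N, cad, GATAe, nub and hairy whatever their values, and 2 on either side of each threshold. Other genes, such as the paralogue pairs, were chosen after their values were seen. For 1094 genes with several probe sets the median difference between them was 1.42 log2 units, and it was 3 or more in 314 (28.7%). Alternatives were another ceiling, threshold, ranking value, probe set rule or normalization, and leaving out each array. Protein length, chromosome arm and promoter motifs were planned and not analysed here, and genomic span was used instead.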

Additional observations from a re-analysis of the deposited data

How the results depend on the processing

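The background count depends on the ceiling: with the 75th percentile of the odorant receptors, 4932 probe sets were at background in place of 8377. Leaving out each array in turn gave 8468 to 8752 probe sets at background, 9185 to 9316 above it on all arrays, 701 to 1080 above it on some arrays only (1368 with all 3), and 680 to 1293 with a range of 1 or more (1557 with all 3). The lowest of these last counts, 701 and 680, were without unchallenged replicate 2. Without replicate 1 they were 1080 and 781, and without F3 they were 987 and 1293. A range over fewer arrays cannot be larger, so the fall of the range count was fixed in advance. Its values are the 2-fold counts between pairs of arrays given above. The number of abundant members moved by over 1.5 times in 28 of 59 lists with the top 10% as the threshold, 25 with the top 2%, 6 with all 6 arrays, 3 with the mean over arrays, 3 with the mean of a gene's probe sets and 1 with further quantile normalization. It moved in 5 lists without F3, 3 without unchallenged replicate 1 and 1 without unchallenged replicate 2. The direction of no value was tested, and the cause of these shifts was not tested. No paired analysis was possible because the results come from no test and F3 has 1 array. The number of arrays and the background of each probe set limit the precision.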
